A study of Mus musculus with 85 samples.

Results

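Kupffer cells are the macrophages that reside in the sinusoids of the liver. They clear bacteria, endotoxin, dying cells and aged erythrocytes from portal blood, they recycle iron, and they sample antigen. The comparison described here is that of untreated Kupffer cells from the inbred mouse strains A/J and BALB/cJ, 2 RNA-seq libraries each, so 4 of the 85 libraries of the series. The 4 libraries were chosen by their labels (cell type Kupffer cell, strain A/J or BALB/cJ, treatment Control), with no use of measured values. The study compared strains that differ in their susceptibility to steatohepatitis, and this pair asks which genes Kupffer cells of both strains express at different levels in the healthy liver.

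The labels carry the same protocol text for both groups. That text describes fasted, uninjected male mice as the controls of the lipopolysaccharide injections, and whether it covers these 4 libraries is not stated. Livers were perfused and digested in the presence of flavopiridol, which blocks transcription, and Kupffer cells were then sorted by flow cytometry as F4/80-high cells that lacked the endothelial marker CD146. The labels give no transgene or deletion for either strain. Whether each library came from a separate mouse is not in the labels, and the p-values therefore measure how far libraries of a strain spread, which may be technical. Depth was 11.62 and 10.97 M counts for A/J libraries 1 and 2 and 13.44 and 10.77 M for BALB/cJ libraries 1 and 2. Levels are given in TPM (a level scaled for gene length and for the total of the library), and log2 fold changes are A/J minus BALB/cJ from the count test of edgeR, with their standard error (SE).

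The label Kupffer cell fitted the markers of that cell. Of 32 Kupffer identity genes, 30 passed the filter on low values, and their summed level was 44790 to 47130 TPM in A/J and 51530 to 53070 TPM in BALB/cJ. Clec4f, the lectin that defines Kupffer cells in mice, was at 6205 and 5670 TPM in A/J and 7270 and 7568 TPM in BALB/cJ. Markers of other cells varied in level. The 21 endothelial genes summed to 728.5 and 816.7 TPM in A/J and 580.8 and 587.8 TPM in BALB/cJ, and the 16 monocyte genes to 1014 and 1076 TPM against 1236 and 965.3 TPM. Mcam, which encodes the CD146 used to remove endothelial cells, was at or under 0.406 TPM in each library, and Ly6g and Chil3, genes of neutrophils and monocytes, were at 0. Genes of hepatocytes, endothelial cells and erythrocytes were present at different levels in the strains, and of the tested members of these marker lists only Lyve1 was called. Outside the lists, the hepatocyte serpin genes Serpina1d and Serpina1e and the endothelial and lymphocyte gene Gimap6 were called higher in A/J. So were Plg (log2 fold change 1.03), Ehhadh (1.15) and Acaa1b (1.09), which hepatocytes also express. Alb (albumin) was at 233 and 366 TPM in A/J and 77.5 and 161 TPM in BALB/cJ. Stab2, an endothelial scavenger receptor, was at 98.8 and 117 TPM against 48.6 and 66.6 TPM. The erythroid genes, 14 of which were in the table, summed to 1098 and 210.6 TPM in A/J and to 7.121 and 4.896 TPM in BALB/cJ, with A/J library 1 the highest. None of the 6 erythroid genes tested was called by edgeR, while all 6 had an unadjusted p under 0.05. Of 3 stellate cell genes tested, Rgs5 was higher in A/J (16.9 and 20.9 TPM against 4.91 and 4.84 TPM) and Ecm1 in BALB/cJ (118 and 130 TPM against 331 and 273 TPM). These 2 calls were 66.7% of the 3, beside 3.17% of all genes.

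Across all genes, 7758 were tested and 246 were called, a share of 3.17%, with 124 higher in A/J (1.6%) and 122 higher in BALB/cJ (1.57%). To be called, a gene had to differ more than 2-fold with an adjusted p (Benjamini-Hochberg, over all genes tested) under 0.05. The median absolute log2 difference of the called genes was 1.46, and 76 of them differed more than 4-fold. Without a library the count was 344 (A/J 1), 270 (A/J 2), 223 (BALB/cJ 1) or 282 (BALB/cJ 2). In bulk libraries of sorted cells, a lower level per cell and fewer cells that express a gene cannot be told apart.

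**Figure D1:**
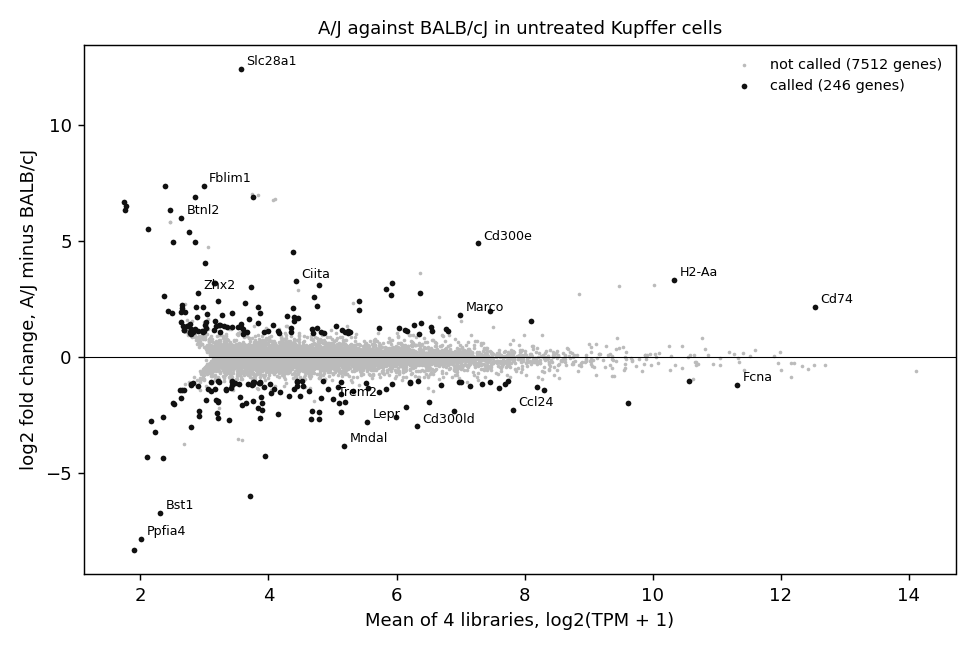
Each point is 1 of the 7758 genes tested. The x axis is the mean of the 4 libraries in log2(TPM + 1), the y axis is the log2 fold change (A/J minus BALB/cJ), and black points are the 246 called genes. Calls lie about equally above and below 0, and H2-Aa, Cd74 and Cd300e combine a high level with a large difference.

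Genes of antigen presentation by MHC class II were higher in A/J Kupffer cells. Class II molecules present peptides to CD4+ T cells. Their genes share promoter elements, among them the Y box, and depend on the coactivator CIITA, whose own level is set largely by interferon-gamma and cell type. A/J, BALB/cJ and C57BL/6J carry different haplotypes of this locus. Of 18 genes of the list, 13 were tested and 5 were called (38.5%), all of them higher in A/J, beside 1.6% of all genes in that direction. The median log2 fold change of the 13 tested was 2.17, against -0.00 over all genes tested.

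The Y box is shown first, and only some class II genes held it in the form searched. Of the class II genes, 12 had a promoter window that was searched (250 bases before to 50 after the start). H2-Aa, H2-Eb1, H2-Eb2 and H2-Oa held the Y box in the form searched, CTGATTGG, on either strand. The windows of H2-DMb1 and H2-DMb2, which were called, did not hold this form. Cd74, Ciita and H2-Ab1 were not among the 12, so whether their promoters hold the Y box was not tested. Of the 32851 promoter windows searched, 4.1% held the Y box. The sites of the 2 genes that were tested are printed 5′ to 3′ on the strand of the gene with the motif in capitals, from RefSeq, build GRCm38.p6 (mm10). They are the sequence of C57BL/6J, and the A/J and BALB/cJ alleles were not analysed here.
H2-Aa (chr17:34287856-34287885, minus strand, 51 bases before the start): aagagaattttCTGATTGGttctggcgagt
H2-Eb1 (chr17:34305794-34305823, plus strand, 62 bases before the start): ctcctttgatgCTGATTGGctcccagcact

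Ciita, the gene of the coactivator, was at 83.2 and 44.6 TPM in A/J and at 5.89 and 7.22 TPM in BALB/cJ (log2 fold change 3.28, SE 0.45, adjusted p = 0.0305). Both A/J libraries lay above both BALB/cJ libraries, and the A/J libraries also differed from each other. H2-Aa, the alpha chain of the I-A molecule, was at 5736 and 2710 TPM against 410 and 428 TPM (log2 fold change 3.33, SE 0.49, adjusted p = 0.0335). Cd74, the invariant chain that escorts class II molecules, was at 16957 and 8919 TPM against 3029 and 2687 TPM (2.17, SE 0.39, adjusted p = 0.0396). H2-DMb1 and H2-DMb2, subunits of the molecule that loads the peptide, were higher in A/J by 2.76 (SE 0.34) and 1.90 (SE 0.31) on the log2 scale, and H2-DMb2 is named to complete the list.

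The other chains showed the same order of libraries without passing the test. H2-Ab1 was at 4577 and 1838 TPM in A/J and 353 and 391 TPM in BALB/cJ (3.11, SE 0.61, adjusted p = 0.0796), and H2-Eb1 was at 1924 and 617 TPM against 193 and 199 TPM (adjusted p = 0.185). H2-Ea-ps, the alpha chain of I-E, was at 2965 and 1338 TPM against 257 and 249 TPM (adjusted p = 0.0526), and in C57BL/6J, a strain known to lack the I-E alpha chain, it was at 0 and 0.198 TPM. Other genes of the list differed less. Ctss, a protease that cuts the invariant chain, had a log2 fold change of -0.02 (SE 0.17), and Ifi30, a thiol reductase of the lysosome, one of 0.13 (SE 0.15). Rfx5, Rfxank and Rfxap, subunits of the complex to which CIITA binds, ranged from 4.98 to 12.3 TPM over the 4 libraries. Rfx5 and Rfxank were not called, and Rfxap did not pass the filter.

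**Figure D2:**
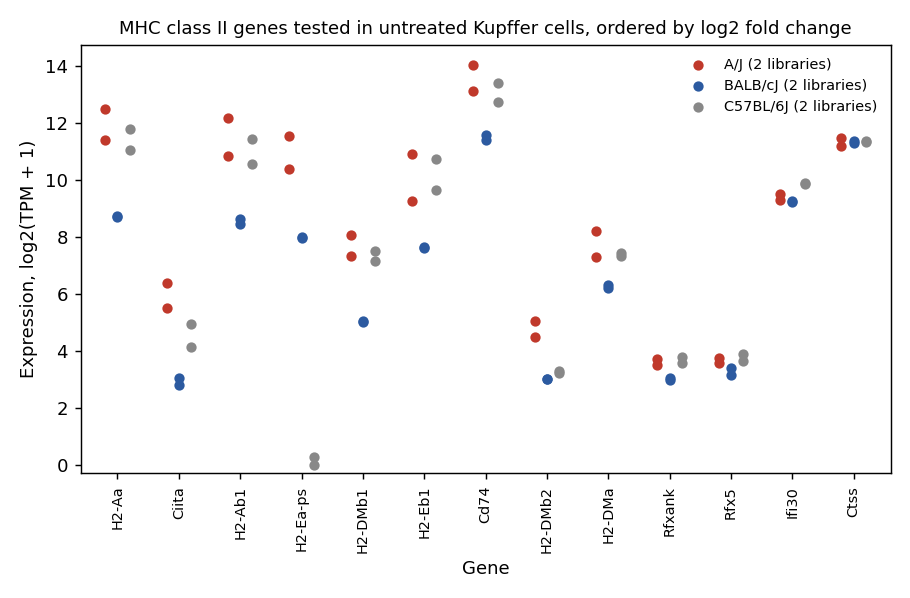
The 13 class II genes tested, with 1 point per library (A/J red, BALB/cJ blue, C57BL/6J grey), in log2(TPM + 1). From H2-Aa to H2-DMa both BALB/cJ libraries lie below both A/J libraries, H2-Ea-ps is near 0 in C57BL/6J, and the strains meet at Ctss on the right.

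The A/J pair was spread wide for these genes. Over the 13 tested class II genes, A/J library 1 was higher than A/J library 2 by a median of 1.06 on the log2 scale, against 0.00 over all genes tested, while the BALB/cJ pair differed by a median of -0.04. Without BALB/cJ library 1 or 2 the adjusted p of Ciita was 0.29 or 0.374, that of H2-Aa 0.4 or 0.48, that of Cd74 0.314 or 0.394 and that of H2-DMb1 0.167 or 0.22. With A/J library 1 or 2 left out, the BALB/cJ pair alone gives the spread and the wide A/J spread no longer enters, so these fits are no check of the calls. Markers of other antigen-presenting cells were given the same look. The 17 dendritic cell genes summed to 4886 and 2108 TPM in A/J and 565.6 and 633.7 TPM in BALB/cJ, most of it from H2-Ab1. Flt3 and Cd209a, which define dendritic cells, were at 0 in all 4 libraries, and Xcr1, Ccr7 and Siglech were at or under 0.119 TPM, while Clec9a, a marker of cross-presenting dendritic cells, was at 47.1 and 57.1 TPM in A/J and 34.4 and 27.6 TPM in BALB/cJ (0.71, SE 0.13, adjusted p = 0.0144, under the fold limit). All 5 dendritic cell genes tested had a positive log2 fold change, and their part in the class II difference was not tested. Batf3, also a transcription factor of dendritic cells, was higher in A/J (55.7 and 51.5 TPM against 22.6 and 28.4 TPM, 1.05, SE 0.19, adjusted p = 0.0137). Without A/J library 1 it fell under the fold limit (0.90), and without BALB/cJ library 1 its adjusted p was 0.0715. The B cell genes Cd79a and Ms4a1 were at or under 0.354 TPM. The part of the erythroid RNA of A/J library 1 in these differences was not tested.

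Among the listed GTPases that respond to interferon-gamma, 1 passed the test. Gbp4, a guanylate-binding GTPase, was at 102 and 56 TPM in A/J and 8.73 and 9.29 TPM in BALB/cJ (3.13, SE 0.41, adjusted p = 0.0235, and 0.286 or 0.361 without BALB/cJ library 1 or 2). It was the 1 called gene of 14 tested interferon-gamma GTPases, a share of 7.14% beside 3.17% of all genes, and all 14 had a positive log2 fold change, with a median of 0.82. Cd274 (PD-L1) was at 46.1 and 33.5 TPM against 19.7 and 17.7 TPM (1.08, SE 0.21, adjusted p = 0.0261). Its call was lost without A/J library 1, where the log2 fold change was 0.72, and without BALB/cJ library 1 or 2, where the adjusted p was 0.0954 or 0.0915. Irf1, a transcription factor of the interferon response, was at 113 and 78.6 TPM against 27.3 and 65.6 TPM (adjusted p = 0.382), with no overlap but a wide spread. Of 26 tested genes of MHC class I presentation, 1 was called higher in A/J and 2 higher in BALB/cJ, 11.5% beside 3.17% of all genes. H2-Q7 was at 32.6 and 14.6 TPM in A/J and 3.1 and 1.91 TPM in BALB/cJ (3.21, adjusted p = 0.0373, and 0.245 or 0.33 without BALB/cJ library 1 or 2). H2-T24 was at 31.4 and 35.3 TPM against 142 and 150 TPM (-2.16, SE 0.11), and H2-T22 at 6.3 and 4.84 TPM against 15.3 and 14.2 TPM (-1.42, SE 0.21). Outside the list, H2-Q9 (3.21, the same value as H2-Q7), H2-K2 (3.19) and H2-Bl (2.14) were called higher in A/J, and H2-Q1 (-1.74) higher in BALB/cJ. These are members of a family of near-identical genes whose reads can be split between copies, so each is uncertain. The classical chains H2-K1 and H2-D1 had log2 fold changes of 0.50 (SE 0.24) and 0.34 (SE 0.20) and were not called.

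Of 38 tested genes that respond to type I interferon, 1 was called, Oasl1, 18 had an unadjusted p under 0.05, and 5 had a positive log2 fold change, with a median of -0.43. Oasl1 was at 15.8 and 13.5 TPM in A/J and 29.4 and 50 TPM in BALB/cJ (-1.45, SE 0.29, adjusted p = 0.0401, and 0.108 or 0.224 without A/J library 1 or 2). The called share of the list, 2.63%, was near that of all genes, 3.17%. Ifi27l2a, an interferon-inducible gene outside the list, was called higher in BALB/cJ (-1.17).

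PYHIN genes encode interferon-inducible proteins that bind DNA or act in its sensing, and they lie side by side on chromosome 1. Of 9 tested, 4 were called and all 4 were higher in BALB/cJ, 44.4% beside 1.57% of all genes in that direction. The median log2 fold change of the 9 was -0.84, and 3 of them had a positive value that was not called. Most of their promoters that were searched in the reference hold an interferon response element. The form searched, GAAANNGAA, on both strands, was found in 9 of the 12 genes of the list with a promoter window. Ifi204, which was called, was not among the 12, so its promoter was not searched. By gene, 9.76% of all 27025 genes with a window searched held it, and by window 8.56% of 32851. The sites of 3 called genes are shown with those of 2 that were not called, so that both can be compared, 5′ to 3′ on the strand of the gene, with the element in capitals (RefSeq, GRCm38.p6, the C57BL/6J sequence).
Mndal (chr1:173880205-173880233, minus strand, called): aagagctgggGAAATCGAAagctatgaac
Ifi211 (chr1:173913065-173913093, minus strand, called): caaagccaggGAAATTGAAagctatgaac
Ifi205 (chr1:174031871-174031899, minus strand, called): ccaggccaggGAAATTGAAagctatgaac
Ifi203 (chr1:173942509-173942537, minus strand, not called): aagagctgggGAAATCGAAagctatgaac
Ifi207 (chr1:173741832-173741860, minus strand, not called): cctagccaggGAAATCGAAaattaagaac

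The printed stretches of Mndal and Ifi203 are the same letters, while the genes differed in their measured change. Mndal was at 7.39 and 11.4 TPM in A/J and 116 and 140 TPM in BALB/cJ (-3.82, SE 0.18, adjusted p = 1.23e-05), a 14.1-fold difference. Ifi203 was at 50.7 and 74.5 TPM against 88.6 and 128 TPM (-0.84, SE 0.22, adjusted p = 0.0694), and Ifi207 at 130 and 201 TPM against 135 and 183 TPM, where the libraries overlap. Ifi205 was at 3.57 and 2.09 TPM against 12.3 and 16.1 TPM (-2.33, SE 0.33), Ifi211 at 7.04 and 6.96 TPM against 23.4 and 30.3 TPM (-1.96, SE 0.20), and Ifi204 at 55.6 and 57 TPM against 104 and 121 TPM (-1.03, SE 0.12). Ifi204 lay near the fold limit and lost its call without A/J library 2 or BALB/cJ library 2, where the log2 fold change was -0.97 or -0.92. Aim2, the member that senses DNA in the cytosol, was at 55.2 and 59.8 TPM against 45.7 and 41.6 TPM and was not called. PYHIN genes resemble each other, and reads can be shared between copies.

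Mndal was also lower in A/J in other cells. In LSECs (liver sinusoidal endothelial cells, 4 libraries per strain) its log2 fold change was -4.63 (SE 0.15), and in bone-marrow-derived macrophages (BMDMs) given PBS, 2 libraries per strain, it was -3.86 (SE 0.13). Ifi204 differed in direction, being higher in A/J in LSECs (1.02, SE 0.15, adjusted p = 0.00158).

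Among the CD300 family, immunoglobulin-like receptors that bind lipids and either activate or inhibit myeloid cells, 2 of 7 tested genes were called, in opposite directions. That was 28.6%, beside 3.17% of all genes. Cd300e, an activating receptor, was at 803 and 889 TPM in A/J and at 26.9 and 27.7 TPM in BALB/cJ (4.92, SE 0.14, adjusted p = 1.27e-06), a 30.3-fold difference. Cd300ld was at 23.9 and 33 TPM against 236 and 200 TPM (-2.98, SE 0.15, adjusted p = 1.61e-05). Both lie within the same stretch of chromosome 11 (Cd300e at 115051917 to 115066676, Cd300ld at 114982443 to 114989886, mm10). Cd300a, an inhibitory receptor, was not called (log2 fold change 0.05, SE 0.12), and Cd300lb had a difference of 0.65 (SE 0.11) that passed the p threshold but not the fold limit. C57BL/6J libraries were at 169 and 174 TPM for Cd300e and at 568 and 555 TPM for Cd300ld, so Cd300e was intermediate and Cd300ld highest in the third strain. In Kupffer cells from mice kept for 30 weeks on the AMLN diet (high in fat, fructose and cholesterol, and a cause of steatohepatitis), Cd300e was at 463, 519, 694 and 690 TPM in A/J and at 14.8, 30.4 and 20.6 TPM in BALB/cJ (4.93, SE 0.31, adjusted p = 0.000638). Cd300ld was at 20.4, 9.96, 17.7 and 16.9 TPM against 211, 351 and 231 TPM (-3.83, SE 0.31, adjusted p = 0.00154).

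Chemokine ligands, which guide leukocytes, were called in 6 of 14 tested genes, 4 higher in BALB/cJ and 2 in A/J. The share was 42.9%, beside 3.17% of all genes. Ccl24, a ligand of eosinophils, was at 117 and 90.5 TPM in A/J and 558 and 434 TPM in BALB/cJ (-2.28, SE 0.21, adjusted p = 0.00204). Ccl6 was at 438 and 366 TPM against 1798 and 1297 TPM (-1.97, SE 0.21), and Ccl9 at 17.3 and 13.2 TPM against 100 and 56.4 TPM (-2.38, SE 0.37, adjusted p = 0.0372, and 0.142 or 0.223 without A/J library 1 or 2). Cxcl14, a chemokine of resting tissue, was at 9.94 and 9.44 TPM against 76.9 and 45.1 TPM (-2.68, SE 0.29, adjusted p = 0.00472, and 0.0583 or 0.0873 without A/J library 1 or 2). The ligands higher in A/J were Cxcl13, which attracts B cells (137 and 145 TPM against 36.1 and 62.6 TPM, 1.48, SE 0.26), and Cxcl10, an interferon-gamma target (19.3 and 13.9 TPM against 5.64 and 7.66 TPM, 1.31, SE 0.31), both named to complete the list. Cxcr4, the receptor of CXCL12, was the 1 called gene of 6 tested chemokine receptors, 16.7% beside 3.17% of all genes. It was at 15 and 19.1 TPM in A/J against 55 and 75.9 TPM in BALB/cJ (-1.98, SE 0.18, adjusted p = 0.000509).

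Genes that recognise or disarm endotoxin were higher in A/J where they differed. Of 17 tested, 3 were called, all higher in A/J, 17.6% beside 1.6% of all genes in that direction. Lbp, which carries lipopolysaccharide to CD14, was at 24.4 and 31.7 TPM in A/J and 6.4 and 5.67 TPM in BALB/cJ (2.17, SE 0.16, adjusted p = 0.000134). Alb was also higher in both A/J libraries, and the part of hepatocyte RNA in the Lbp difference was not tested. Aoah, which removes acyl chains from lipopolysaccharide, was at 36.1 and 46.2 TPM against 13.4 and 20 TPM (1.26, SE 0.20, adjusted p = 0.00831, and 0.0692 without A/J library 2), and Cd180, a relative of TLR4, at 94.2 and 107 TPM against 43.2 and 39.7 TPM (1.24, SE 0.11). The core receptor genes were not called. Tlr4 had a log2 fold change of 0.19 (SE 0.14), Cd14 one of -0.14 (SE 0.18) and Ly96 one of 0.05 (SE 0.14). Of 11 other Toll-like receptor genes tested, Tlr9, a sensor of DNA, was at 22.6 and 22.3 TPM against 8.7 and 6.96 TPM (1.49, SE 0.16) and Tlr12 at 83.5 and 78.9 TPM against 28.6 and 38.1 TPM (1.26, SE 0.16). These 2 calls were 18.2% of the list, beside 1.6% of all genes in that direction. The cytokine genes Tnf and Il10 did not pass the filter, and Il1b was at 114 and 78.7 TPM against 215 and 181 TPM (-1.06, SE 0.24, adjusted p = 0.0562). Pim1, a kinase induced by cytokines, was higher in A/J (69.9 and 43.9 TPM against 11.7 and 12.4 TPM, 2.23, SE 0.30, adjusted p = 0.011, and 0.0819 or 0.0673 without BALB/cJ library 1 or 2).

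**Figure D3:**
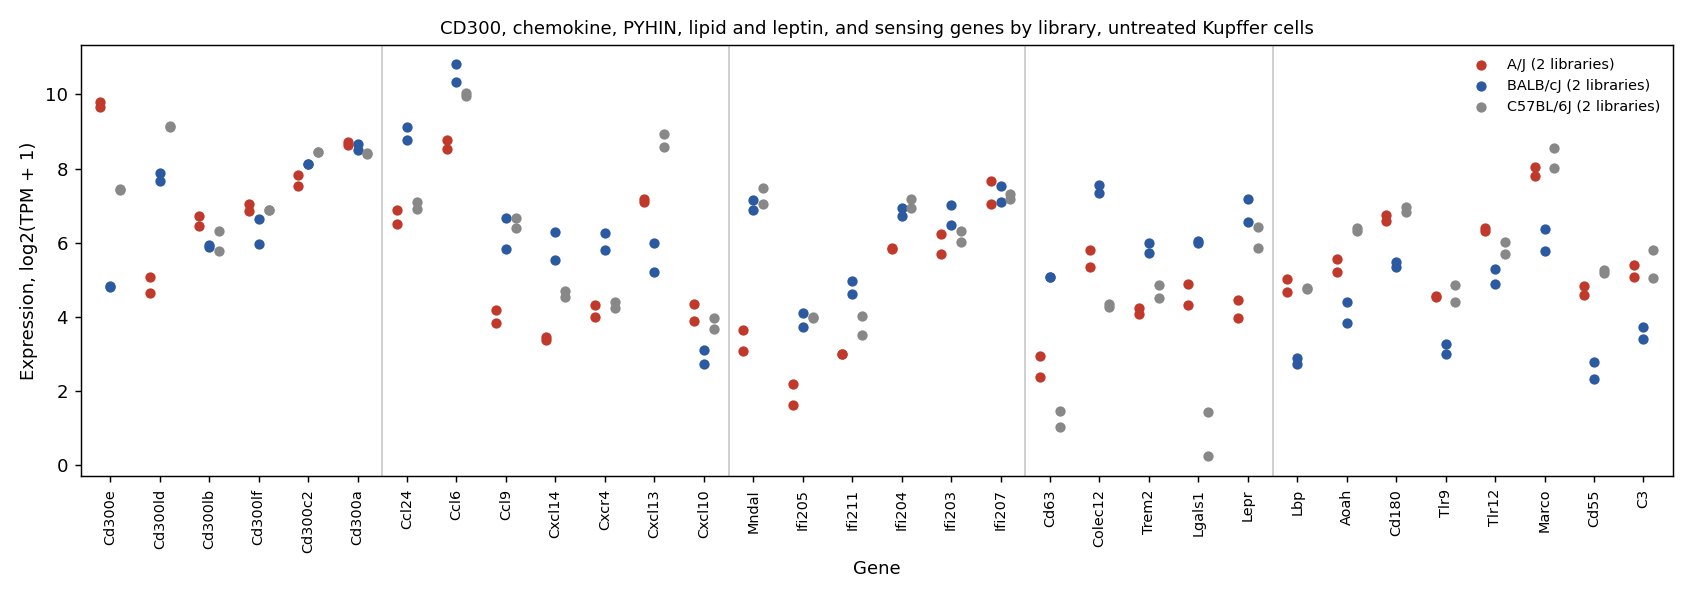
Levels of 32 genes in untreated Kupffer cells, with 1 point per library (A/J red, BALB/cJ blue, C57BL/6J grey), in log2(TPM + 1). Vertical lines separate, from left to right, the CD300 family, chemokine genes, PYHIN genes, lipid and leptin genes, and genes of sensing, scavenging and complement. Cd300e is highest in A/J and the points of Cd300a meet.

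Genes of lipid-associated macrophages, the state that macrophages take in fatty tissue, were higher in BALB/cJ where they differed. Of 17 tested, 4 were called, all in that direction, 23.5% beside 1.57% of all genes. Trem2, a receptor for lipids, was at 15.8 and 17.8 TPM in A/J and 51.7 and 63.1 TPM in BALB/cJ (-1.80, SE 0.16, adjusted p = 0.000397). Cd63, a tetraspanin of late endosomes, was at 4.2 and 6.64 TPM against 32.8 and 32.6 TPM (-2.64, SE 0.25), Lgals1 at 19 and 28.7 TPM against 65.5 and 63 TPM (-1.48, SE 0.18), and Colec12, a scavenger receptor, at 39.5 and 55.2 TPM against 186 and 160 TPM (-1.91, SE 0.15). The genes that mark the full state, Gpnmb, Spp1, Cd9 and Fabp5, were at or under 4.06 TPM in each of the 4 libraries and were not tested. On the AMLN diet Trem2 was at 121, 31.3, 32.4 and 58.2 TPM in A/J and 120, 103 and 94.4 TPM in BALB/cJ, ranges that overlap (-0.57, SE 0.51, adjusted p = 0.725).

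Lepr, the receptor of leptin, was lower in A/J. It was at 14.8 and 20.9 TPM in A/J and at 145 and 92.4 TPM in BALB/cJ (-2.78, SE 0.26, adjusted p = 0.00333), a 6.85-fold difference, with C57BL/6J between them at 57.3 and 85.4 TPM. It was the 1 called gene of 10 tested in leptin signalling, 10% beside 3.17% of all genes. In a fit over all parental Kupffer libraries its log2 fold change was -2.79 with an adjusted p of 0.0548 in edgeR. On the AMLN diet it was at 0.513, 11.4, 10.2 and 8.29 TPM in A/J and 65.4, 39.4 and 19.4 TPM in BALB/cJ, still without overlap (-2.32, SE 0.83, adjusted p = 0.336). LSECs also expressed Lepr, at a mean of 21.7 TPM in A/J and 26.4 TPM in BALB/cJ (-0.24, SE 0.15), and it was not called there.

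Genes of lipid metabolism itself were rarely called. None of 14 listed genes of cholesterol synthesis, 12 of fatty acid synthesis and desaturation, 21 of heme and iron handling or 24 lysosomal enzymes was called by edgeR, while 3, 5, 9 and 8 of them had an unadjusted p under 0.05. Outside these lists, the lysosomal enzyme genes Arsb (-2.72) and Gla (-1.17) and the heme oxygenase gene Hmox2 (-1.07) were called higher in BALB/cJ. The lysosomal enzyme gene Fuca1 (1.12) was called higher in A/J. Of 18 tested LXR targets, 1 was called, 5.56% beside 3.17% of all genes. It was Apoc2, at 13.6 and 8.2 TPM in A/J against 38.9 and 29.3 TPM in BALB/cJ (-1.65, SE 0.31, adjusted p = 0.0155, and 0.0793 without BALB/cJ library 1). Fads1, a desaturase, had a log2 fold change of 0.20 (SE 0.12), and C57BL/6J was lower than both strains, at 41.3 and 41 TPM.

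Receptors that take up particles and dying cells differed in both directions, with 2 of 23 tested genes higher in each strain. The called share of the list was 17.4%, beside 3.17% of all genes. Marco, a scavenger receptor for bacteria, was at 263 and 221 TPM in A/J and 53.8 and 81.5 TPM in BALB/cJ (1.82, SE 0.24, adjusted p = 0.0109, and 0.0529 without A/J library 1). Stab1, which Kupffer cells share with endothelial cells, was at 24.9 and 34 TPM against 72 and 71.6 TPM (-1.33, SE 0.13). Timd4, a receptor for phosphatidylserine, and Mertk, a kinase of efferocytosis, were at differences of 0.58 (SE 0.13, adjusted p = 0.0299) and 0.95 (SE 0.14, adjusted p = 0.00441) that stayed under the fold limit. Dnase1l3, a DNase that digests DNA of dying cells, was at 106 and 86.9 TPM in A/J against 17.7 and 17.6 TPM in BALB/cJ (2.42, SE 0.16, adjusted p = 8.05e-05). LSECs hold far more of it, at means of 2463 and 2466 TPM, and the Stab2 level of the same 4 Kupffer libraries differed by 0.87 (SE 0.16) in the same direction. Lyve1, another endothelial gene, went the other way (1.53 and 0.981 TPM against 5.38 and 11.6 TPM, -2.76, SE 0.47, adjusted p = 0.016, and 0.0816 or 0.163 without A/J library 1 or 2). The part of endothelial RNA in the Dnase1l3 difference was not tested.

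Complement genes were called in 3 of 17 (17.6%, beside 3.17% of all genes). C3, the central component, was at 41 and 32.4 TPM in A/J and 9.57 and 12.2 TPM in BALB/cJ (1.74, SE 0.20), and Cd55, which protects cells from complement, at 23.1 and 27.4 TPM against 4.04 and 5.89 TPM (2.32, SE 0.20). LSECs held Cd55 at means of 451 and 484 TPM, and the part of endothelial RNA in this difference was not tested either. The part of hepatocyte RNA in the C3 difference was also not tested. C5ar1, the receptor of C5a, was lower in A/J (81.9 and 98.5 TPM against 204 and 160 TPM, -1.05, SE 0.14, adjusted p = 0.00336), and it lay near the fold limit, with no call without BALB/cJ library 1. Fcna, a ficolin that starts the lectin pathway and 1 of the 6 most abundant genes called higher in BALB/cJ, was at 1712 and 1703 TPM against 3777 and 3842 TPM (-1.19, SE 0.14). The C1q gene C1qa was at 5040 and 4104 TPM against 5779 and 5921 TPM and was not called.

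Of 30 tested Kupffer identity genes, Marco was called higher in A/J and Cd207 higher in BALB/cJ, 6.67% beside 3.17% of all genes. Cd207 (langerin) was at 34.4 and 78.1 TPM in A/J and 236 and 301 TPM in BALB/cJ (-2.32, SE 0.39, adjusted p = 0.0434, and 0.245 or 0.381 without BALB/cJ library 1 or 2). On the AMLN diet it was at 248, 146, 270 and 230 TPM in A/J and 101, 185 and 129 TPM in BALB/cJ, with a log2 fold change of 0.88 (SE 0.27, adjusted p = 0.239). Among C-type lectins, 3 of 19 tested genes were higher in A/J, namely Clec4b1 (26.8 and 24.7 TPM against 10.2 and 9.16 TPM, 1.38, SE 0.24), Cd209b (6.54 and 9.95 TPM against 3.03 and 4.11 TPM, 1.17, SE 0.29) and Clec2d (29.1 and 28.8 TPM against 9.55 and 17 TPM, 1.10, SE 0.27). With Cd207, 4 of the 19 were called, 21.1% beside 3.17% of all genes. The adjusted p of Cd209b was 0.249 or 0.0515 without BALB/cJ library 1 or 2, and Clec2d had 0.139, 0.142 or 0.139 without A/J library 1, A/J library 2 or BALB/cJ library 1. None of 24 growth factor receptors and niche signals was called, and 6 had an unadjusted p under 0.05.

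Of 28 transcription factors of Kupffer cells that were tested, 4 were called, 14.3% beside 3.17% of all genes. Zhx2, a repressor that is hypomorphic in BALB/cJ, was at 16.4 and 15.7 TPM in A/J and 2.36 and 2.21 TPM in BALB/cJ (2.79, SE 0.17, adjusted p = 4.06e-05). Atf5, a factor of the stress response, was at 29.2 and 40.7 TPM against 10.4 and 12.7 TPM (1.56, SE 0.18). Cebpb, a factor of inflammation, was at 195 and 185 TPM against 380 and 524 TPM (-1.28, SE 0.17), and Klf4 at 9.07 and 9.5 TPM against 16.1 and 22.8 TPM (-1.10, SE 0.19), with no call for Klf4 without A/J library 2 (adjusted p = 0.0681) or BALB/cJ library 2 (log2 fold change -0.83). The lineage factors Spic, Nr1h3 and Maf were at log2 differences of 0.67, -0.15 and -0.15 and were not called.

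Of 19 tested immediate-early genes, which respond to stress and handling, Fosb and Klf4 were called, 10.5% beside 3.17% of all genes. Fosb was at 24.1 and 18.7 TPM in A/J against 8.63 and 4.92 TPM in BALB/cJ (1.63, SE 0.32, adjusted p = 0.0425, and 0.095 or 0.0826 without A/J library 1 or 2), and Fos at 219 and 160 TPM against 69.2 and 41.3 TPM (adjusted p = 0.0561). None of 13 heat shock genes was called by edgeR, while 6 had an unadjusted p under 0.05 and their median log2 fold change was -0.87. Hspa1a was at 2.09 and 4.71 TPM in A/J and 15.4 and 58.8 TPM in BALB/cJ, with BALB/cJ library 2 the highest.

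Of 12 tested genes at loci of known inbred-strain mutations, 3 were called (25%, beside 3.17% of all genes), namely Dysf, Zhx2 and Bst1. Whether the mutations set these levels was not tested. Dysf, the dysferlin gene that is disrupted by a retrotransposon in A/J, was at 12.7 and 8.45 TPM in A/J and 59.8 and 74.8 TPM in BALB/cJ (-2.68, SE 0.28, adjusted p = 0.0061). In LSECs it was lower in A/J too (-3.62, SE 0.18). Zhx2 was higher in A/J in LSECs (4.08, SE 0.19), and on the AMLN diet it was at 7.12, 9.15, 14.3 and 14.4 TPM in A/J against 2.5, 2.86 and 1.58 TPM in BALB/cJ (2.43, SE 0.32, adjusted p = 0.0139). Bst1, an ectoenzyme that degrades NAD, was at 0.1 and 0.289 TPM in A/J and 23 and 16.9 TPM in BALB/cJ (-6.71, SE 0.37, adjusted p = 2.5e-05). In BMDMs it was at 0.079 and 0.121 TPM against 32.5 and 25.8 TPM (-8.10, SE 0.24). Of 15 tested inflammasome genes, Naip6 was called (30.1 and 43.4 TPM against 17 and 17.4 TPM, 1.05, SE 0.14), near the fold limit and not called without A/J library 2 (0.86). Naip6 has near-identical neighbours, and its call was 6.67% of the list, beside 3.17% of all genes.

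**Figure D4:**
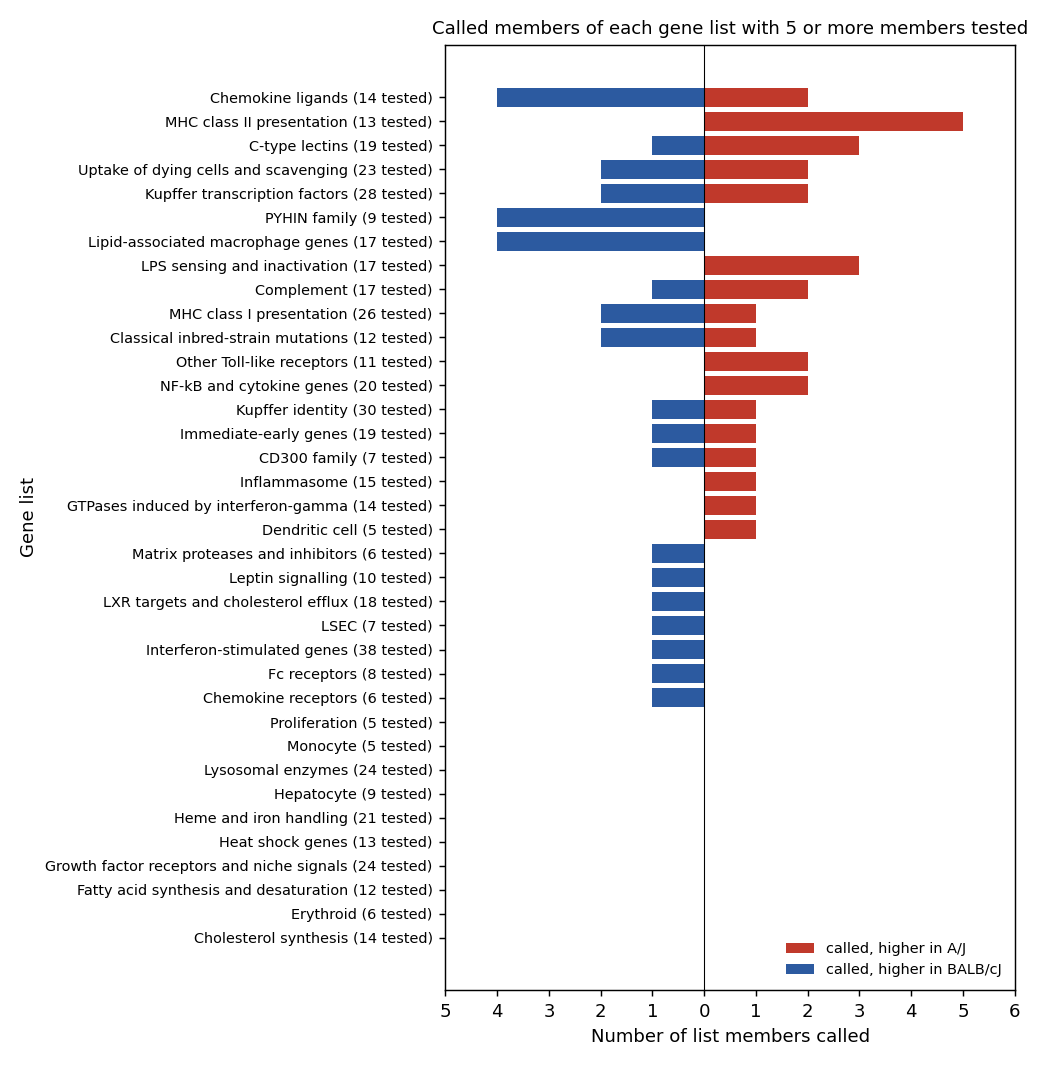
Number of called members of each gene list with 5 or more members tested, with those higher in A/J to the right (red) and those higher in BALB/cJ to the left (blue). The number tested stands beside each name, and 246 of all 7758 genes (3.17%) were called. Class II genes and PYHIN genes have calls on 1 side, and 10 lists have none.

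The largest differences were close to on or off. In 13 called genes both BALB/cJ libraries were under 1 TPM and both A/J libraries over 8 TPM, and in 5 the reverse held. Fblim1, an adaptor of focal adhesions, was at 42.3 and 54.5 TPM in A/J and 0.234 and 0.33 TPM in BALB/cJ (7.38, SE 0.22, adjusted p = 1.27e-06), and in BMDMs it was at 93.8 and 88.6 TPM against 4.73 and 5.06 TPM. Cyp4f18, a hydroxylase of leukotriene B4, was at 24.6 and 21.8 TPM against 0.366 and 0.15 TPM (6.36, SE 0.36), and Il21r, the receptor of interleukin-21, at 9.4 and 9.46 TPM against 0.198 and 0 TPM (6.34, SE 0.54). Btnl2, a butyrophilin-like inhibitor of T cells encoded beside the class II genes, was at 29.4 and 24.2 TPM against 0.444 and 0.348 TPM (6.03, SE 0.28, adjusted p = 1.19e-05). Ppfia4, a liprin, was at 0.097 and 0.022 TPM in A/J and 14.5 and 14.2 TPM in BALB/cJ (-7.82, SE 0.31, adjusted p = 5.61e-06).

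For genes with at most 3 counts in a strain, counts are given in place of the fold change between the strains. Slc28a1, a nucleoside transporter, had 6536 counts in A/J and 1 in BALB/cJ over both libraries, and lost its call without BALB/cJ library 1 or 2 (adjusted p = 0.0762 or 0.132). Ifitm10 had 191 and 2 counts, and Serpina1d, 1 of several near-identical serpin genes of hepatocytes, 217 and 2. Other large differences that were higher in BALB/cJ were those of Retreg1, a receptor of reticulophagy (0.56 and 1.63 TPM against 11.1 and 8.68 TPM, -3.24, SE 0.38), Fam20c, a secretory kinase (1.72 and 2.25 TPM against 18 and 12.7 TPM, -2.99, SE 0.24), and Arsb, a lysosomal sulfatase (1.85 and 5.74 TPM against 23.5 and 23.9 TPM, -2.72, SE 0.48, adjusted p = 0.0489, and 0.328 or 0.423 without BALB/cJ library 1 or 2). Abundant called genes included Plbd1, a phospholipase-like protein (366 and 337 TPM against 74.5 and 101 TPM, 1.98, SE 0.18), Abcc3, a conjugate exporter (177 and 214 TPM against 507 and 502 TPM, -1.40, SE 0.13), and Wfdc17 (973 and 1156 TPM against 2082 and 2198 TPM, -1.04, SE 0.12).

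Some on or off genes are needed by every cell. Atp5g1 and Atp5g2, which encode the same subunit of ATP synthase, were at 17.6 and 10.6 TPM and at 23.4 and 17.4 TPM in A/J and under 1 TPM in BALB/cJ, while Cox7c was at 0.789 and 0.302 TPM in A/J and 13 and 9.72 TPM in BALB/cJ (adjusted p = 0.00816, and 0.0672 without BALB/cJ library 1). The ribosomal protein gene Rpl38, chosen after its values were seen, was at 132 and 76.3 TPM in A/J and 0.895 and 0.736 TPM in BALB/cJ, and also at 0.777 and 0 TPM in C57BL/6J. These genes have many processed copies. In LSECs Rpl38 was at a mean of 116 TPM in A/J and 0.0917 TPM in BALB/cJ, so the low level recurred in that strain in another cell type. Reads were mapped to a genome built for each strain, and the part of that mapping in these values was not tested. Without H2 genes, ribosomal protein genes, mitochondrial complex genes and gene models, a restriction chosen after seeing the data, 209 of 7342 genes were called.

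Called genes were gathered at some places of the genome. Of the 246, 244 had a position in the RefSeq annotation of GRCm38.p6 (mm10). Chromosome 17 had the highest share of tested genes called, 30 of 430 (6.98%), followed by chromosome 1 with 25 of 448 (5.58%) and chromosome 11 with 32 of 702 (4.56%). Runs of at least 4 called genes with gaps under 500 kb were found at 5 places. On chromosome 1, from 173747293 to 174031755, 4 of 6 tested genes were called, all PYHIN genes and all higher in BALB/cJ. Chromosome 17 held 3 runs in the MHC, of which that from 33951998 to 34369492 had 7 of 22 tested genes called, 6 of them higher in A/J, including H2-Aa, H2-DMb1, H2-DMb2 and Btnl2. A run on chromosome 12, from 103321142 to 103956897, had 5 of 9 called, among them Serpina1d and Serpina1e. Ciita and Cd74 lie outside the MHC, on chromosomes 16 and 18.

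How far these differences extend beyond the untreated Kupffer cell was read in 3 other comparisons of the same strains with libraries of their own. In Kupffer cells on the AMLN diet (4 A/J and 3 BALB/cJ libraries), 73 of 8242 genes were called (0.886%). Of the 246 genes, 225 were tested there, 204 had the same direction (90.7%, against 59.3% of all genes tested in both), and 48 were called in the same direction and 0 in the opposite. These 48 are 19.5% of the untreated calls and 65.8% of the calls on the diet. The AMLN libraries varied more, with Alb at 63.9 to 2014 TPM. Ciita was at 144, 75, 143 and 81.2 TPM in A/J and 5.1, 37.3 and 8.15 TPM in BALB/cJ (2.93, SE 0.73, adjusted p = 0.129), and H2-Aa at 6285, 4307, 7585 and 5521 TPM against 364, 2187 and 684 TPM (2.65, SE 0.60, adjusted p = 0.108), so the strains did not overlap but the BALB/cJ libraries spread widely. Mndal was at 1.19, 0.555, 10.4 and 11.5 TPM against 40.8, 150 and 92.8 TPM (-3.91, SE 0.98, adjusted p = 0.134). Fblim1 was at 40.2, 32.6, 41.1 and 39.1 TPM against 1.76, 1.35 and 3.21 TPM, Btnl2 at 27.1, 24.8, 25.5 and 30.6 TPM against 0.419, 0.836 and 0.875 TPM, and Ppfia4 at 0.075, 0.061, 0.017 and 0.046 TPM against 11.4, 15.8 and 13 TPM, and all 3 were called in the untreated direction. Cxcl14 (36.2, 8.12, 6.8 and 12.9 TPM against 25.9, 22.2 and 21.7 TPM) and Dnase1l3 (321, 288, 237 and 242 TPM against 196, 156 and 525 TPM) overlapped.

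The test of whether the strain difference itself changed with the diet called 2 of 8511 genes (0.0235%), the hemoglobin genes Hba-a1 and Hba-a2, and none of the 246. DESeq2 called 33, and 294 had an unadjusted p under 0.05 in edgeR. That none of the 246 was called does not show that the differences were equal. The AMLN mice were fed for 30 weeks, while the labels give the untreated mice no weeks on a diet. Age, control feeding and any fasting therefore cannot be told apart from the AMLN diet here.

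**Figure D5:**
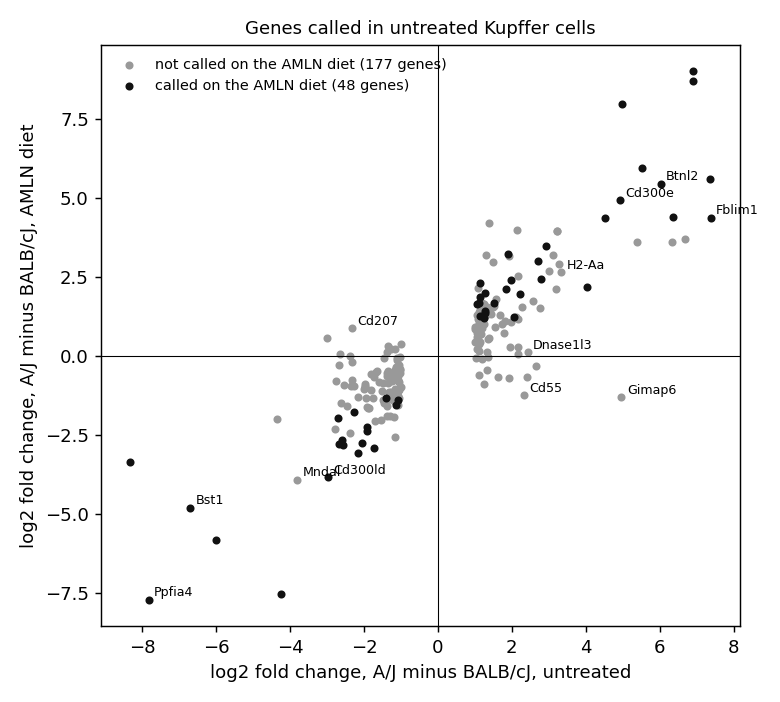
The 225 genes called in untreated Kupffer cells and also tested on the AMLN diet. The x axis is the log2 fold change (A/J minus BALB/cJ) in untreated cells and the y axis that on the diet, and black points are the 48 genes called in both. Most points, 204 of 225, lie in the quadrants of equal direction, with Gimap6, Cd55 and Cd207 among those outside.

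In BMDMs given PBS, 362 of 8314 genes were called (4.35%). Of the 246 Kupffer genes, 152 were tested there, 118 had the same direction (77.6%, against 45.2% of all genes tested in both), 51 were called in the same direction and 10 in the opposite. Cd300e, Cd300ld, Mndal, Bst1 and Fblim1 were among the first. Tlr9 was higher in A/J Kupffer cells and higher in BALB/cJ BMDMs (-1.11, SE 0.09, adjusted p = 1.03e-05), and C3 did likewise (-1.16, SE 0.25, adjusted p = 0.021). Trem2 was at 593 and 703 TPM in A/J BMDMs and 585 and 586 TPM in BALB/cJ BMDMs (0.07, SE 0.09). The class II genes were at low levels there, with H2-Aa at 15 and 17.4 TPM against 17.9 and 23.7 TPM and Ciita at or under 0.601 TPM. The test of the difference between Kupffer cells and BMDMs called 809 of 9044 genes (8.95%), with the signed difference (A/J minus BALB/cJ) more positive in Kupffer cells in 4.96% and more negative in 3.98%, among them 131 of the 246 (53.3%).

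In LSECs 219 of 8639 genes were called (2.54%), 1.25% higher in A/J and 1.28% higher in BALB/cJ. Of the 246 genes, 148 were tested there, 104 had the same direction (70.3%, against 56.5%), 36 were called in the same direction and 4 in the opposite. The test of the difference between Kupffer cells and LSECs called 312 of 9552 genes (3.27%), with the signed difference (A/J minus BALB/cJ) more positive in Kupffer cells in 1.81% and more negative in 1.46%, among them 74 of the 246 (30.1%). The 3 interaction tests and the Kupffer comparison share the 4 untreated Kupffer libraries, so their calls are not independent of it.

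The third strain fell on both sides. Of the 124 genes higher in A/J, the mean of C57BL/6J in log2(TPM + 1) was nearer to A/J in 71 and nearer to BALB/cJ in 53. Of the 122 higher in BALB/cJ, it was nearer to A/J in 76 and nearer to BALB/cJ in 46. Mefv, the pyrin gene, did not pass the filter and was at 0.036 and 0.124 TPM in A/J, 6.48 and 6.98 TPM in BALB/cJ and 23.8 and 35.1 TPM in C57BL/6J. Irak3 and Cd40 also stayed below the filter, with 6.3 and 7.29 TPM against 7.3 and 6.32 TPM for Irak3 and 5.19 and 3.33 TPM against 3.3 and 3.93 TPM for Cd40, where the strains overlap and C57BL/6J was higher in both genes (16.8 and 18.3 TPM for Irak3, 14.9 and 17.6 TPM for Cd40).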

How the data were processed

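RNA-seq libraries of Kupffer cells from A/J and BALB/cJ mice were poly(A) selected and dUTP marked. Per the labels, the authors mapped reads with STAR (version not given in the sources) to genomes of each strain, built from mm10 with known small variants but no structural variants, and shifted them to mm10. The deposited tables hold counts over exons and TPM values, both made by the authors with HOMER. For BMDMs the deposited table holds expected counts that need not be whole, and they were rounded before testing. How strand was treated in counting is not stated there, and overlapping genes on opposite strands cannot be told apart.

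Differences were tested with edgeR 4.0.16 under R 4.3.3 (quasi-likelihood, TMM scaling, robust fit), over genes that passed filterByExpr and reached a group mean above 8 TPM. All p-values are two-sided, and adjusted p-values are Benjamini-Hochberg over all genes tested. Standard errors are the log2 fold change divided by the square root of F. Interactions were contrasts in 1 fit over 4 groups. Scripts were tested on simulated data. DESeq2 1.42.0 and limma 3.58.1 served as alternatives.

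The members and lists were chosen with earlier results of these data known. In total 42 gene lists were used. Named genes are at most 4 called genes per list, then in each direction the 10 that changed most and the 6 most abundant (gene models left out), 10 genes named by the study and the defining markers of cell types. The list members were counted, and no set test was run. Positions and promoters came from RefSeq (GRCm38.p6). Tables of the hybrid mice were not used here. Depth was 10.77 to 13.44 M counts per library.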

Additional observations from a re-analysis of the deposited data

Results flagged for a closer look

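The strain difference of some named genes differed between Kupffer cells and other cells by the interaction test (edgeR, difference in Kupffer cells minus that in the other cells, adjusted over all genes). Against BMDMs given PBS, the 6 largest among the named genes were those of Btnl2 (6.76, SE 0.66, adjusted p = 0.000171), Ifitm10 (6.19, SE 1.03, adjusted p = 0.0024), Il21r (6.13, SE 0.48, adjusted p = 6.24e-05), Cd207 (-5, SE 0.72, adjusted p = 0.00394), H2-Q7 (4.62, SE 0.64, adjusted p = 0.00204) and Gbp4 (4.46, SE 0.75, adjusted p = 0.00827). Il21r was at 26.9 and 26.2 TPM in A/J BMDMs and 24.1 and 19.1 TPM in BALB/cJ BMDMs, so the gene that is near 0 in BALB/cJ Kupffer cells was expressed in BALB/cJ BMDMs. Btnl2, Ifitm10, Cd207 and Gbp4 were at or under 2.57 TPM in BMDMs of both strains, where a fitted difference depends on few counts. Ifitm10 had 2 counts in BALB/cJ Kupffer cells, so its interaction values, here and against LSECs, depend on the prior count, are no bound and set no rank.

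Against LSECs, the 6 largest among the named genes were those of Ppfia4 (-8.21, SE 0.73, adjusted p = 8.88e-05), Fblim1 (7.66, SE 0.97, adjusted p = 0.00183), Ifi205 (-6.89, SE 0.76, adjusted p = 0.00034), Ifitm10 (6.04, SE 0.62, adjusted p = 0.000185), Lyve1 (-3.41, SE 0.51, adjusted p = 0.00388) and Gbp4 (2.60, SE 0.42, adjusted p = 0.00602). Ifitm10 and Gbp4 were expressed in LSECs of both strains, at means of 46.2 and 34.6 TPM and of 117 and 83.1 TPM. Lyve1 was at 555 and 361 TPM there.

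Among 31 groups of 4 libraries tested, 1 had a library far from the others, where chance gives about 1 in 20. It was Rpl38 in BALB/cJ LSECs, at 0.367 TPM in library 3 and 0 TPM in the other libraries, a level near no reads.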

How the results depend on the processing

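The 75 called genes named by the rule kept their direction under each of up to 16 alternatives, and 25 of them kept the call in all. At least 1 library left out cost 28 of them the call, and 41 missed a test against a 2-fold limit (glmTreat). The fit over all parental Kupffer libraries cost 28 of the 75 the call, among them Lepr, C3, Cd55, Cd63, Lgals1, Atf5, Cebpb, Klf4, Marco, Stab1, Fcna, Cd180, Cd274, C5ar1 and Ifi204. The count of genes called in untreated Kupffer cells was 204 with DESeq2, 246 with other size factors (RLE), 245 with the upper quartile, 164 in a fit over all parental Kupffer libraries, and 223 to 344 with 1 library left out. It moved to 573 with filterByExpr alone, 727 with no filter on low values, 675 with no fold limit and 69 with the 2-fold test. For the AMLN diet it was 73 in the main test, 251 with DESeq2, 144 with filterByExpr alone, 169 with no filter and 31 to 63 with 1 library left out (31 without BALB/cJ library 1, 41 without A/J library 3, 42 without BALB/cJ library 3); for BMDMs 1204 with filterByExpr alone and 1261 with no filter, for LSECs 443 and 473, and for the test of Kupffer cells against BMDMs 1253 and 1508. The diet interaction had 33 with DESeq2, 5 with no filter and 0 to 7 with 1 library left out (6 or 7 without untreated A/J library 1 or 2).

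Replicate numbers were not taken as pairs, since not every same-numbered pair correlated above 0.1 in its deviations. The correlation was -0.06 in untreated Kupffer cells, 0.247, -0.512 and 0.0388 on the AMLN diet, and 0.677, -0.547, 0.412 and 0.303 in LSECs. With the replicate number as a block the counts were 275 in untreated Kupffer cells, 20 on the AMLN diet, 359 in BMDMs, 221 in LSECs and 0, 811 and 289 in the interactions. Of 3 BALB/cJ AMLN libraries 0, and of 4 LSEC libraries 1, correlated best with the A/J library of its own number. A crossed block in BMDMs (correlation -0.13), chosen after seeing the data, gave 355. The cause of these shifts was not tested. With 2 libraries per strain, a gene whose pair spreads, such as H2-Ab1, can miss the threshold at a large difference.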

Other observations

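Genes outside the lists, chosen after their values were seen, also differed. Itgb7, an integrin chain of lymphocyte homing, was at 122 and 61.4 TPM in A/J and 3.91 and 4.06 TPM in BALB/cJ (4.52, SE 0.52, adjusted p = 0.0229 by edgeR), and Cd52, a small surface glycoprotein, at 198 and 108 TPM against 23.7 and 23.1 TPM (2.70, SE 0.40, adjusted p = 0.0224). In both genes A/J library 1 was above A/J library 2, as for the class II genes. Both were called on the AMLN diet in the same direction (4.37, SE 0.37, and 3.00, SE 0.41). Arg2, the mitochondrial arginase, was at 24.1 and 27.4 TPM in A/J and 157 and 143 TPM in BALB/cJ (-2.58, SE 0.12, adjusted p = 1.19e-05), and in BMDMs at 0.717 and 0.454 TPM against 43.8 and 27.8 TPM (-6.10, SE 0.33). Havcr2 (TIM-3), an inhibitory receptor, was at 3.7 and 4.85 TPM against 14.3 and 15.1 TPM (-1.82, SE 0.18). Gimap6, a GTPase of lymphocytes and endothelium, was at 26.8 and 28 TPM against 0.833 and 0.869 TPM (4.97, SE 0.24), while LSECs of both strains held it at 320 TPM or more in every library and it differed there by -0.20 (SE 0.08).

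Ribosomal protein genes other than Rpl38 were near 0 in 1 strain in more than 1 cell type. Rps18 was at 1.35 and 1.04 TPM in A/J and 79 and 75.9 TPM in BALB/cJ Kupffer cells, and it was lower in A/J in LSECs (-4.48, SE 0.26). Rpl37 was at 54.1 and 28.2 TPM against 0.478 and 0.147 TPM, and it was higher in A/J in LSECs (5.97, SE 0.42).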
